A study of Meleagris gallopavo with 12 samples.

Results

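The proteasome and the enzymes that mark proteins for it were examined in the premammillary nucleus of turkey hens, as 44 probes of a chicken oligonucleotide array out of 20460. The probes were picked by words in their deposited names. A name holding "proteasome" put 28 probes in the proteasome class, and a name holding "ubiquitin-conjugating enzyme" put 16 in the ubiquitin-conjugating enzyme (E2) class. Each probe stood for its own gene, and 39 carried a gene symbol, of which 37 are also in the RefSeq gene table of turkey. Names follow the array's own annotation, which may be out of date. Probes LOC429986, LOC416137, LOC425483 and LOC419991 are named by similarity to the proteasome beta type 4 subunit, UBE2D2, CDC34 and UBE2Z, and RIGG03333 is named only as a proteasome C1 subunit. ARIH1 entered the E2 class through a name that describes a ligase binding E2 enzymes.

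The proteasome is a barrel-shaped protease that degrades proteins tagged with ubiquitin. Its core is built of alpha rings, which gate the entry, and beta rings, which hold the proteolytic sites, while a regulatory cap of ATPases and non-ATPase subunits binds, unfolds and feeds in the substrate. Ubiquitin is activated by an E1 enzyme, passed to an E2 enzyme and placed on the target with the help of an E3 ligase, and deubiquitinating enzymes remove it. In neurons this system turns over clock proteins, receptors and synaptic proteins.

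Adult hens of 3 groups were compared, each as 4 pools of tissue from 6 hens. Short-day photosensitive (SDPS) hens lived on 6 h of light and 18 h of dark, and long-day photosensitive (LDPS) hens received 16 h of light and 8 h of dark for 10 days. Long-day photorefractory (LDPR) hens had passed a whole reproductive cycle and a moult under long days, and so differed from LDPS hens in time on long days and in reproductive history together. Their hours of light per day are not stated in the labels. Pools of different groups shared the 6 two-colour arrays, 2 arrays for each pair of groups, 1 in each dye orientation. Each comparison was fitted with limma over the 6 arrays, by a model of the 3 groups and a dye term on log2 ratios, and adjusted p-values are Benjamini-Hochberg values over the 18012 tested probes, with 0.05 as the threshold. Levels are normalised log2 intensities, and levels of different probes are not compared, since each depends on how well turkey RNA binds that chicken sequence.

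Median spot amplitudes ran from 92.7 to 276.5 over the 12 channels. In 11 of them 91.6% to 96.6% of probes were brighter than the 95th percentile of the empty spots, and in LDPR pool 2 it was 79.3%. All 44 members were measured on 6 arrays and tested. PSMD14 exceeded that percentile in 11 channels and the other members in 12. Pooling hides the spread between hens, and the p-values therefore measure the spread between pools and arrays. Of 5 marker genes listed for premammillary dopamine-melatonin neurons, 3 were measured (TH, OPN4 and ASMT), and their summed level ran from 11.63 to 12.09 over the pools. In a tissue sample, fewer cells of a type and less RNA per cell cannot be told apart.

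Transcripts of neither class passed the adjusted threshold in any comparison, and most were held to narrow limits. The share of all tested probes that passed was 0% for LDPS against SDPS, 0.0167% for LDPR against LDPS and 0% for LDPR against SDPS. In the proteasome class, the 95% interval of the fold change lay within 1.5-fold up or down for 28 of 28 members in LDPS against SDPS, 26 of 28 in LDPR against LDPS and 28 of 28 in LDPR against SDPS. In the E2 class it did so for 15, 15 and 14 of 16. Over all tested probes this held for 96.1%, 89.6% and 91.0%. The members outside were UBE2E1 in each comparison, PSMA2 and PSME4 in LDPR against LDPS, and LOC416137 in LDPR against SDPS. The median standard error (SE) of a log2 fold change was 0.105 in the proteasome class and 0.111 in the E2 class, against 0.11 over all probes. For every member, the ranges of the 4 pools of one group overlapped those of the other groups. This count was not made over all tested probes, so it cannot be read as particular to the members.

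**Figure D1:**
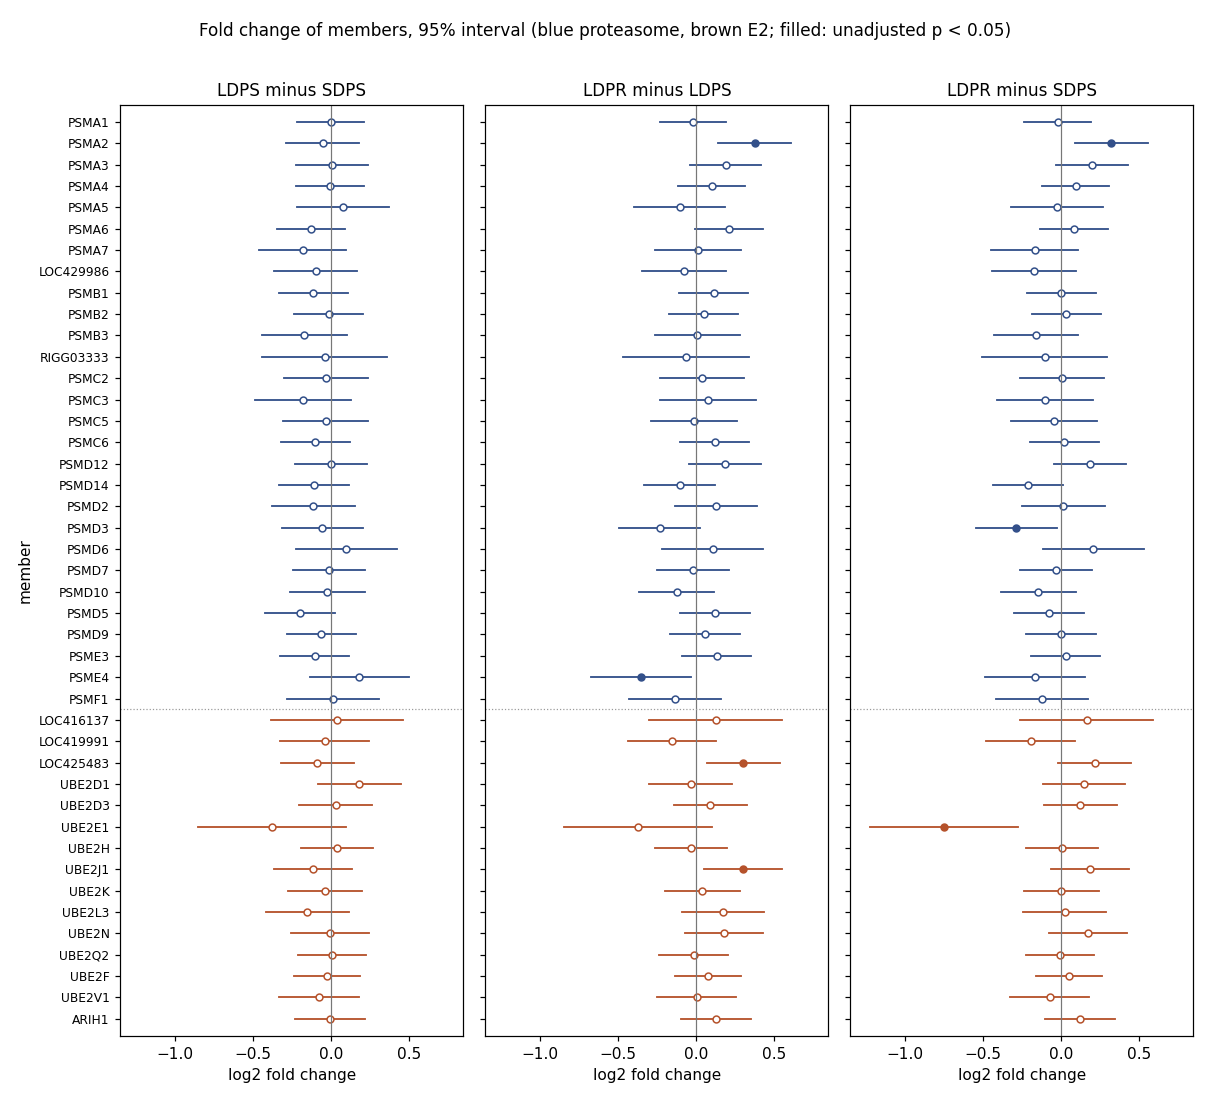
Log2 fold change (x axis) of 43 members (y axis) in the 3 comparisons, with bars for the 95% interval of the limma fit, proteasome class in blue and E2 class in brown. Filled points had an unadjusted p under 0.05, and UBE2E1 has the widest interval of the members, reaching from -1.22 to -0.28 in LDPR against SDPS.

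The first comparison set hens after 10 long days against short-day hens. No member had an unadjusted p under 0.05. Among all tested probes, 3.03% were higher and 1.3% lower at that level. Of 28 proteasome probes, 22 had negative and 6 positive values, with a median log2 fold change of -0.05, against 53.3% negative and a median of -0.01 over all tested probes. The arrays that carried both groups did not share this shift, since the class median was -0.06 on one and 0.02 on the other. Over the alternative settings the median ran from -0.15 to -0.01. Of the red blood cell markers, 3 of 3 measured genes were higher at an unadjusted p under 0.05 and 0 at an adjusted one (median 0.66), with summed levels of 12.58 to 12.75 in SDPS and 12.62 to 13.69 in LDPS. Other markers past that unadjusted level were ITGB2 of leukocytes (0.60), FSHB of the pituitary (0.50), the neuronal NEFM (0.23) and TH (0.23). SLC1A3 (-0.34) and AQP4 (-0.27) of astrocytes were lower at that level. Each of these lists held values of both signs. Positive were 2 of 4 leukocyte genes (median 0.03), 1 of 4 pituitary genes (median -0.01) and 2 of 5 neuronal genes (median -0.02). The same held for 2 of 5 astrocyte and tanycyte genes (median -0.15) and 2 of 3 premammillary genes (median 0.15). The part of these markers in the members' values was not tested.

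By the place of the subunits in the complex, 5 of 7 alpha-ring members were negative (median -0.01), as were 4 of 4 beta-ring members (median -0.11), 4 of 4 cap ATPases (median -0.07), 4 of 6 cap non-ATPases (median -0.03) and 3 of 3 assembly chaperones (median -0.06). Of the 3 activators and inhibitors, 1 was negative (median 0.01). The lowest values were those of PSMD5, a chaperone of cap assembly, at -0.20 (SE 0.10), of PSMA7 (alpha ring) at -0.18 (SE 0.12) and of PSMC3 (cap ATPase) at -0.18 (SE 0.14). None of the 3 had an unadjusted p below 0.0749. At the other end stood PSME4, the large activator also called PA200, at 0.18 (SE 0.14), PSMD6 (cap non-ATPase) at 0.10 (SE 0.14) and PSMA5 (alpha ring) at 0.08 (SE 0.13).

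In the E2 class 11 of 16 members were negative, with a median of -0.03 that turned to 0.03 when only the direct arrays were used. UBE2E1 had the lowest value, -0.38 (SE 0.21, unadjusted p = 0.105), with 0.40 and -0.36 on the direct arrays. UBE2L3, which serves HECT and RBR ligases, was at -0.15 (SE 0.12). The highest were UBE2D1, an E2 used by many ligases, at 0.18 (SE 0.12), LOC416137 at 0.04 (SE 0.19) and UBE2H at 0.04 (SE 0.10).

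Photorefractory hens were then set against photosensitive hens on long days, which asked how the tissue differs once long days no longer stimulate. At an unadjusted p under 0.05, 1 of 28 proteasome members was higher and 1 lower, and 2 of 16 E2 members were higher and 0 lower. Of all tested probes, 4.96% were higher and 8.98% lower at that level. The proteasome median was 0.04, with 17 of 28 values positive against 48.3% of all tested probes, and it was -0.003 with median centring and -0.002 when the array of pool 3 of both groups was left out. The E2 median was 0.09, with 11 of 16 positive, and ran from -0.01 (without LDPR pool 4 and LDPS pool 4) to 0.14 (direct arrays only). On the direct arrays the class medians were 0.15 and 0.01 for the proteasome and 0.07 and 0.24 for the E2 class.

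PSMA2, an alpha-ring subunit, had the highest value of the proteasome class. Its level was 9.72, 9.74, 9.44 and 9.25 in SDPS pools 1 to 4, 9.52, 9.89, 9.12 and 9.50 in the LDPS pools, and 9.50, 9.78, 9.52 and 9.91 in the LDPR pools. The LDPR pools spanned the upper part of the LDPS range and no group stood clear of another. Within arrays the difference was steadier, and LDPR exceeded LDPS by 0.40 and by 0.41 on the direct arrays. The fitted log2 fold change was 0.38 (SE 0.10, 95% interval 0.14 to 0.61, unadjusted p = 0.00491, adjusted p = 0.197).

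Over the alternatives the adjusted p of PSMA2 ran from 0.0403 to 0.777. Its value was 0.35 (adjusted p = 0.0498) when the channels were fitted separately, a fit that called 540 of 16748 probes in this comparison. Without the array of LDPS pool 3 and LDPR pool 3, which was quantified on a later date than the rest and cannot give a value of its own as a batch of 1 array, it was 0.27 (unadjusted p = 0.0816, adjusted p = 0.777). In the test of any difference among the 3 groups, 10.7% of all tested probes had an unadjusted p under 0.05, as had 1 proteasome member, PSMA2 (0.00997), and 2 E2 members, UBE2E1 (0.0178) and LOC425483 (0.0422).

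The other alpha-ring members ranged from -0.10 to 0.21. PSMA6 at 0.21 (SE 0.10, unadjusted p = 0.0549) and PSMA3 at 0.19 (SE 0.10, unadjusted p = 0.0924) came next after PSMA2, and both were positive on both direct arrays. So were 12 of 28 proteasome members, and 4217 of the 17570 tested probes measured on both. Beta-ring members lay between -0.07 and 0.12, and cap ATPases between -0.01 and 0.12. Cap non-ATPases lay between -0.23 and 0.19.

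PSME4 lay at the lower end. Its level was 8.28, 8.03, 8.19 and 8.51 in SDPS, 8.44, 8.54, 8.37 and 8.83 in LDPS, and 8.02, 8.04, 8.42 and 8.38 in LDPR. LDPS pools were the brighter ones, with LDPR pools 3 and 4 inside the lower edge of their range. On the direct arrays LDPR minus LDPS was 0.06 and -0.45. The fitted value was -0.35 (SE 0.14, unadjusted p = 0.0354, adjusted p = 0.32), and it was -0.20 with direct arrays only. Leaving out the array of pool 2 of LDPS and SDPS gave -0.21, and leaving out that of pool 3 of LDPS and LDPR gave -0.57. PSMD3, a non-ATPase of the cap, stood at -0.23 (SE 0.12), and PSMF1, known as the inhibitor PI31, at -0.13 (SE 0.13).

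**Figure D2:**
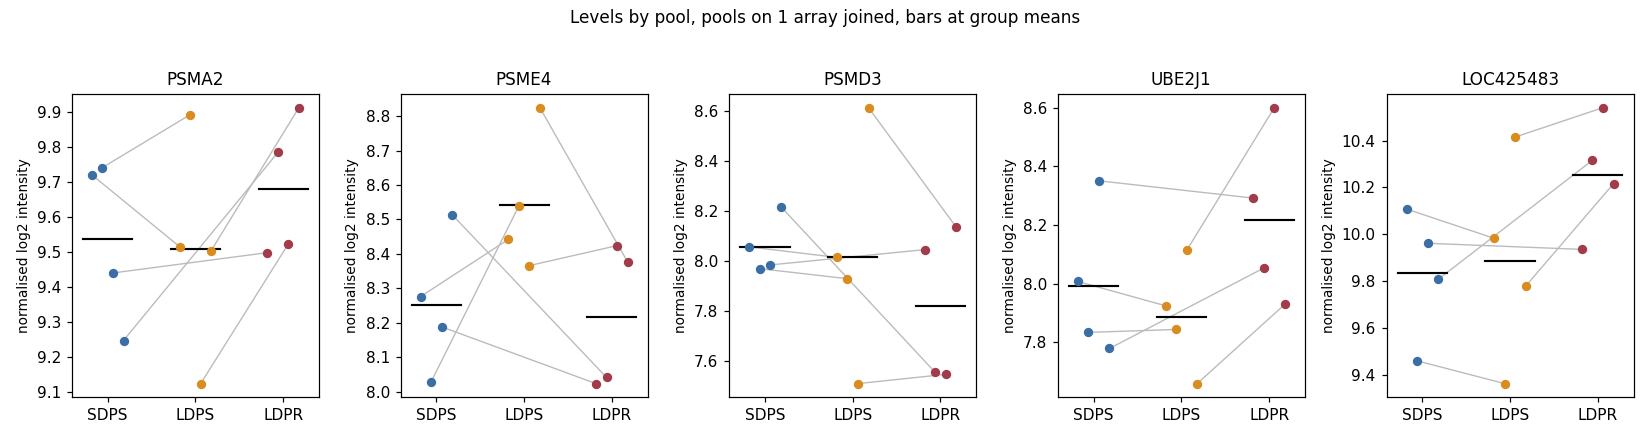
Normalised log2 intensity (y axis) of the 5 members other than UBE2E1 with an unadjusted p under 0.05 in a comparison, by group (x axis), with 1 point per pool, grey lines joining the pools of 1 array and black bars at the group means (n = 4). The groups overlap in each panel, and for PSMA2 the lines from LDPS to LDPR go up by 0.40 and 0.41.

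Among the E2 enzymes, LOC425483, named as similar to CDC34, the partner of cullin-based SCF ligases, had a level of 10.11, 9.46, 9.96 and 9.81 in SDPS. It was 9.98, 9.36, 10.42 and 9.78 in LDPS and 9.94, 10.32, 10.54 and 10.22 in LDPR. LDPR pools 2, 3 and 4 lay above the 4 SDPS pools and LDPR pool 1 inside their range, and the LDPS pools spanned the widest range. LDPR pool 3, at 10.54, shared its array with LDPS pool 3, at 10.42, the brightest LDPS pool. Levels of pools on different arrays also hold differences between the arrays. Its log2 fold change was 0.30 (SE 0.10, unadjusted p = 0.0163, adjusted p = 0.25), with 0.12 and 0.44 on the direct arrays.

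UBE2J1, an E2 anchored in the endoplasmic reticulum that acts in the disposal of misfolded proteins, stood at 8.01, 7.83, 8.35 and 7.78 in SDPS and 7.92, 7.84, 8.11 and 7.66 in LDPS. In LDPR it was 8.29, 8.05, 8.60 and 7.93. Each LDPR pool was brighter than the LDPS pool beside it on an array, by 0.49 and 0.27. The fitted value was 0.30 (SE 0.11, unadjusted p = 0.0232, adjusted p = 0.281), and 0.15 (unadjusted p = 0.293) without the array of LDPS pool 3 and LDPR pool 3.

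UBE2N, which builds ubiquitin chains of a signalling type, followed at 0.18 (SE 0.11), with 0.07 and 0.38 on the direct arrays, while UBE2V1, its inactive partner subunit, was at 0.00 (SE 0.11). The lowest values of the class were UBE2E1 at -0.37 (SE 0.21, unadjusted p = 0.11), LOC419991 at -0.15 (SE 0.13) and UBE2D1 at -0.03 (SE 0.12). On the direct arrays UBE2E1 had 0.20 and -0.14.

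Markers of other cells also differed in value here, with none past the adjusted threshold. Of 7 listed red blood cell genes, 3 were measured, with negative values for each of them (median -0.80) and 2 at an unadjusted p under 0.05. Their summed level was 11.93 to 12.55 in LDPR pools and 12.62 to 13.69 in LDPS pools, with no marker value missing. Of 2 measured oligodendrocyte genes, 2 were lower at that level (median -0.40), with CNP at -0.36 (SE 0.15). Over all tested probes, 8.98% were lower at that level. Of 3 measured choroid plexus and ependyma genes, 3 were positive (median 0.27), and only TTR (2.33, SE 0.60) had an unadjusted p under 0.05. Of 5 astrocyte and tanycyte genes, 2 were higher and 1 lower at that level. ITGB2 was at -0.76 (SE 0.16), in a leukocyte list with 3 of 4 genes negative and a median of -0.16. FSHB was at -0.73 (SE 0.12), in a pituitary list with 3 of 4 genes negative and a median of -0.15. In the leukocyte list and in the pituitary list only that 1 gene had an unadjusted p under 0.05. The part of the markers in the members' values was not tested.

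The third comparison set photorefractory against short-day hens, and this is where UBE2E1 stood out from its class. Its level was 10.55, 10.46, 10.73 and 11.62 in SDPS pools 1 to 4, 10.96, 10.10, 9.55 and 11.05 in LDPS, and 10.01, 10.04, 9.76 and 10.91 in LDPR. SDPS pool 4 was the brightest of the 12 pools, LDPS pool 3 the dimmest, and LDPR pool 4 lay inside the SDPS range. The fitted log2 fold change was -0.75 (SE 0.21, 95% interval -1.22 to -0.28), with an unadjusted p of 0.00558 and an adjusted p of 0.411. No other E2 member had an unadjusted p under 0.05 here. Of all tested probes, 5.89% were lower and 3.48% higher at that level. Among the cell markers, TTR (1.575, SE 0.60) and TH (0.23, SE 0.10) were higher at that level, with adjusted p-values of 0.489 and 0.501. In the list of TTR, 3 of 3 choroid plexus and ependyma genes were positive (median 0.25). In that of TH, 2 of 3 premammillary genes were positive and 1 was negative (median 0.07). The part of these markers in the members' values was not tested.

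The fitted value of UBE2E1 joined 2 paths that did not meet. On the arrays that held both groups, LDPR minus SDPS was -0.72 and -1.58. On the arrays that led through LDPS, LDPS minus SDPS was 0.40 and -0.36, and LDPR minus LDPS was 0.20 and -0.14. The direct path thus gave -1.15 (SE 0.14, unadjusted p = 1.46e-05, adjusted p = 0.0622), while the pairwise averages of the other path were 0.02 and 0.03. The fit of the direct path held a dye term and 1 coefficient for each pair of groups. Its dye term took up part of the gap between -0.72 and -1.58. The SE of 0.14 and its p-value therefore do not describe that gap.

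Ratios should add to 0 around the loop of 3 groups, and those of UBE2E1 added to 1.21 (SE 0.24, unadjusted p = 0.000714, adjusted p = 0.932). It was the only member of 44 with an unadjusted p under 0.05 in this test, which 3.3% of all tested probes had, and it ranked 13 among 18012. In each pair of groups the array with the first-named group in Alexa Fluor 647 gave the higher ratio. The dye term of UBE2E1 was 0.33 (unadjusted p = 0.054), and 24.9% of all tested probes had an unadjusted p under 0.05 for that term, as did 2 proteasome and 3 E2 members.

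The ratio of -1.58 came from LDPR pool 2 with SDPS pool 4, an array on which 20% of all tested probes had a ratio beyond 0.5 in either direction, against 3.25% to 10.1% on the other arrays. Without it UBE2E1 was at -0.41 (SE 0.21, unadjusted p = 0.0855, adjusted p = 0.912), and without the other direct array at -0.55 (unadjusted p = 0.0756). UBE2E1 spots had confidence scores down to 0.35 of a maximum of 1, and it lay above the empty spots in 12 of 12 channels. Without the dye term the SE was 0.28 and the unadjusted p 0.0294. The fitted value stayed at -0.75, which the design fixes in advance, with 1 array in each dye orientation for each pair of groups. The array and the pools on it cannot be told apart.

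**Figure D3:**
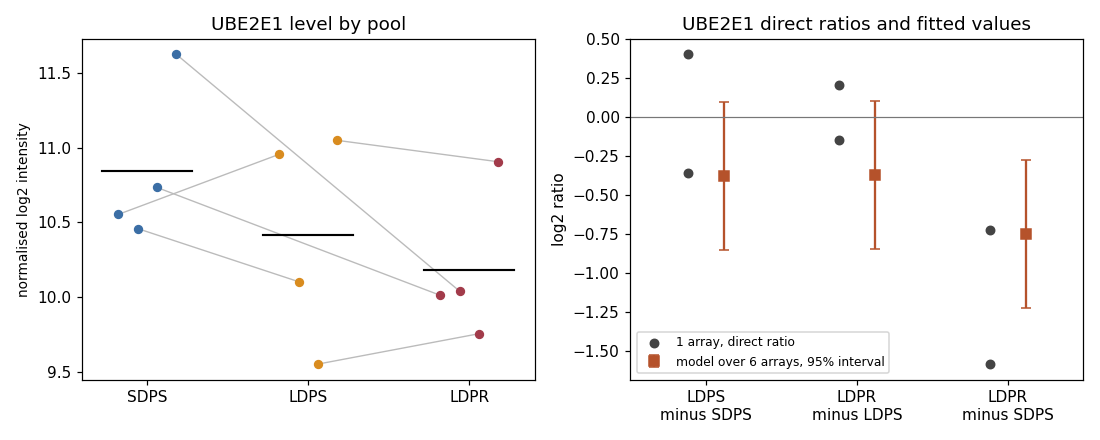
Left, normalised log2 intensity of UBE2E1 (y axis) by group, 1 point per pool, with grey lines joining pools on 1 array and black bars at group means (n = 4). Right, log2 ratio on each of the 2 direct arrays (dark points) and fitted log2 fold change with its 95% interval (brown squares) for the 3 comparisons; the fitted -0.75 lies above the direct -1.58 and close to the direct -0.72.

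Elsewhere in the E2 class values were small, from -0.19 (LOC419991, SE 0.13) to 0.22 (LOC425483, SE 0.10, unadjusted p = 0.0662). UBE2V1 was at -0.07 (SE 0.11), UBE2J1 at 0.19 (SE 0.11) and UBE2N at 0.18 (SE 0.11). The class median was 0.05, with 12 of 16 positive against 46% of all tested probes, and ran from 0.02 to 0.12 over the alternatives. On the direct arrays the medians had opposite signs, at -0.10 and 0.14.

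In the proteasome class PSMA2 was again the highest, at 0.32 (SE 0.10, unadjusted p = 0.0114, adjusted p = 0.441), with 0.06 and 0.54 on the direct arrays. This value shares its LDPR pools with the comparison above and is not a second observation. PSMD6 at 0.21 (SE 0.14) and PSMA3 at 0.20 (SE 0.10) followed. PSMD3 was the lowest. Its level was 8.06, 7.97, 7.99 and 8.22 in SDPS and 8.05, 7.56, 7.55 and 8.14 in LDPR, so that 2 LDPR pools lay below the SDPS range and the other 2 inside it. LDPS pools, at 8.02, 7.93, 7.51 and 8.61, spread wider than either. LDPR pool 3, at 7.55, shared its array with LDPS pool 3, at 7.51, and was 0.04 above it there. Levels of pools on different arrays also hold differences between the arrays.

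The log2 fold change of PSMD3 was -0.29 (SE 0.12, unadjusted p = 0.0336, adjusted p = 0.496), with 0.06 and -0.66 on the direct arrays, and -0.18 without LDPR pool 2 and SDPS pool 4. Next came PSMD14, the deubiquitinating subunit of the cap, which was not above the empty spots in 1 of 12 channels, at -0.21 (SE 0.10, unadjusted p = 0.0617), and LOC429986 at -0.17 (SE 0.12). The class median was -0.02, with 13 of 28 positive. It was 0.06 without LDPR pool 2 and SDPS pool 4, and the medians on the direct arrays were 0.05 and -0.18.

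**Figure D4:**
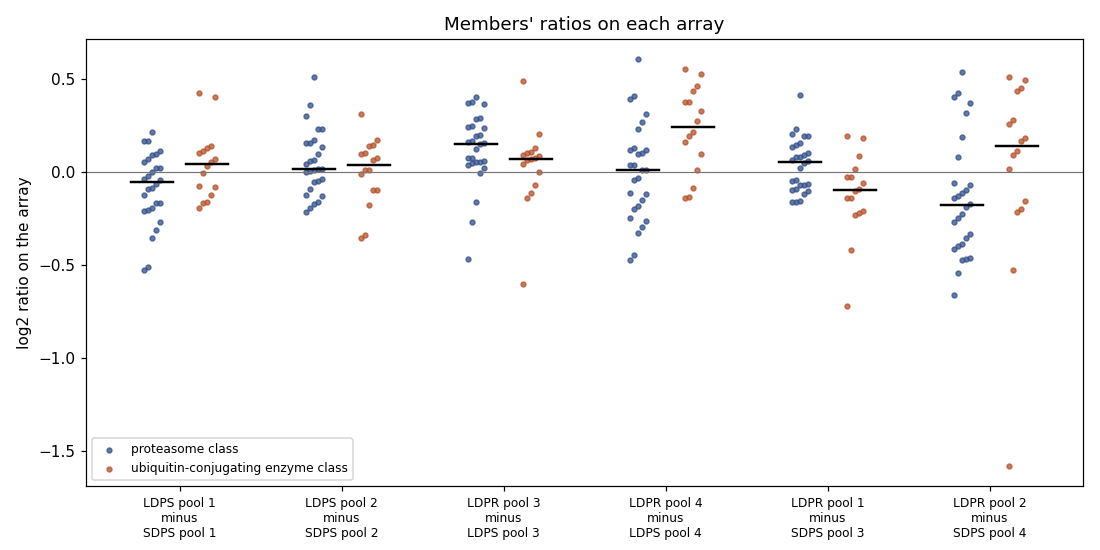
Log2 ratio of each member (y axis) on the 6 arrays (x axis, named by the pools subtracted), proteasome class in blue and E2 class in brown, with black bars at the class medians. The array at the right, LDPR pool 2 minus SDPS pool 4, has a wide spread in both classes, and UBE2E1 is its lowest point at -1.58.

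Within each of the 6 arrays the proteasome ratios spread less than those of all tested probes, with an SD from 0.142 to 0.322 against 0.238 to 0.426. The E2 ratios spread less on 5 arrays and more on the array of LDPR pool 2 with SDPS pool 4, where UBE2E1 lay and the SD was 0.516 against 0.426. The part of spot brightness in this spread was not tested. The 2 brightest pools of a member shared an array for 10 of 28 proteasome and 9 of 16 E2 members, against 37.6% of all probes measured on 6 arrays. The 2 dimmest pools did so for 15 of 28 and 7 of 16, against 34.6%. UBE2N is an example, at 10.85 and 10.94 in SDPS pool 2 and LDPS pool 2, which shared an array, and from 9.44 to 10.07 in the other 10 pools. Class medians of the array ratios scattered around the model with a residual SD of 0.108 (proteasome) and 0.110 (E2), which is larger than each of the fitted class medians. This SD describes the scatter of array medians. It is not the error of a fitted class median, which was not computed.

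Other genes of the pathway were taken as lists, without the members. The shares of all tested probes at an unadjusted p under 0.05 were 3.03% higher and 1.3% lower in LDPS against SDPS. They were 4.96% and 8.98% in LDPR against LDPS, and 3.48% and 5.89% in LDPR against SDPS. Of 7 measured ubiquitin and ubiquitin-like genes, 7 were positive in LDPR against LDPS (median 0.19, against -0.01 over all tested probes), with RPS27A at 0.19 (SE 0.14) and SUMO2 at 0.28 (SE 0.14). None had an unadjusted p under 0.05 there. In LDPR against SDPS 7 of 7 were positive (median 0.04), and UFM1, a ubiquitin-like modifier, had 0.39 (SE 0.11, unadjusted p = 0.00448, adjusted p = 0.41). In LDPS against SDPS 6 of 7 were negative (median -0.08). These comparisons share pools, so the opposite signs are not separate observations.

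Of 7 E1 genes, 6 were negative in LDPS against SDPS (median -0.06) and 6 positive in LDPR against LDPS (median 0.11). UBE1L2, an alternative ubiquitin E1, had -0.29 (unadjusted p = 0.0187) in the first. UBE1DC1, the E1 of UFM1, had 0.31 (unadjusted p = 0.0206) in the second. In LDPR against SDPS 4 of 7 were positive (median 0.08), with 0 at an unadjusted p under 0.05.

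Of 46 E3 genes, 1 was higher and 0 lower at an unadjusted p under 0.05 in LDPS against SDPS, 3 higher and 4 lower in LDPR against LDPS, and 1 higher and 1 lower in LDPR against SDPS. In LDPR against LDPS, 4.96% of all tested probes were higher and 8.98% lower at that level. The list medians were -0.02, 0.05 and 0.03. PJA2, a ligase of protein kinase A subunits, had 0.35 in the first comparison (unadjusted p = 0.00565) and -0.29 in the second (unadjusted p = 0.0154). In the second, UBE3A (0.28), CUL2 (0.25) and RNF13 (0.24) were the higher ones, and CBL (-0.25), FBXO7 (-0.24) and UBE4A (-0.23) the other lower ones. In the third UBR1, a ligase of the N-degron pathway, had 0.32 and FBXO7 -0.26.

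Of 29 deubiquitinating enzymes, 0 were past that level in LDPS against SDPS (median -0.02), 3 were higher and 3 lower in LDPR against LDPS (median 0.06), and 3 were higher and 0 lower in LDPR against SDPS (median 0.05). The shares over all tested probes were 4.96% higher and 8.98% lower in LDPR against LDPS, and 3.48% and 5.89% in LDPR against SDPS. OTUD6B (0.67, SE 0.21), USP4 (0.34) and USP46 (0.30) were the higher ones of the second comparison, and ATXN3 (-0.34), USP34 (-0.33) and USP54 (-0.27) the lower ones. USP46 (0.40), USP4 (0.29) and MYSM1 (0.28) were those of the third. No gene of these lists passed the adjusted threshold.

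Of 13 genes of p97, its shuttle factors and the COP9 signalosome, which removes NEDD8 from cullins, UBQLN4 had -0.37 (unadjusted p = 0.00544) in LDPR against LDPS. UBXD8, an adaptor of p97 at the endoplasmic reticulum, had -0.51 (SE 0.12, unadjusted p = 0.00183, adjusted p = 0.375) in LDPR against SDPS. The list medians were 0.03, 0.07 and 0.09 in the order above. Of 4 regulators of proteasome genes, MAFG, a small partner of NFE2L1, had 0.32 in LDPR against LDPS (unadjusted p = 0.00863) and 0.29 in LDPR against SDPS (unadjusted p = 0.0167), while NFE2L1, NFE2L2 and MAFK had no unadjusted p under 0.05 in a comparison (list medians 0.02, 0.04 and 0.05).

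**Figure D5:**
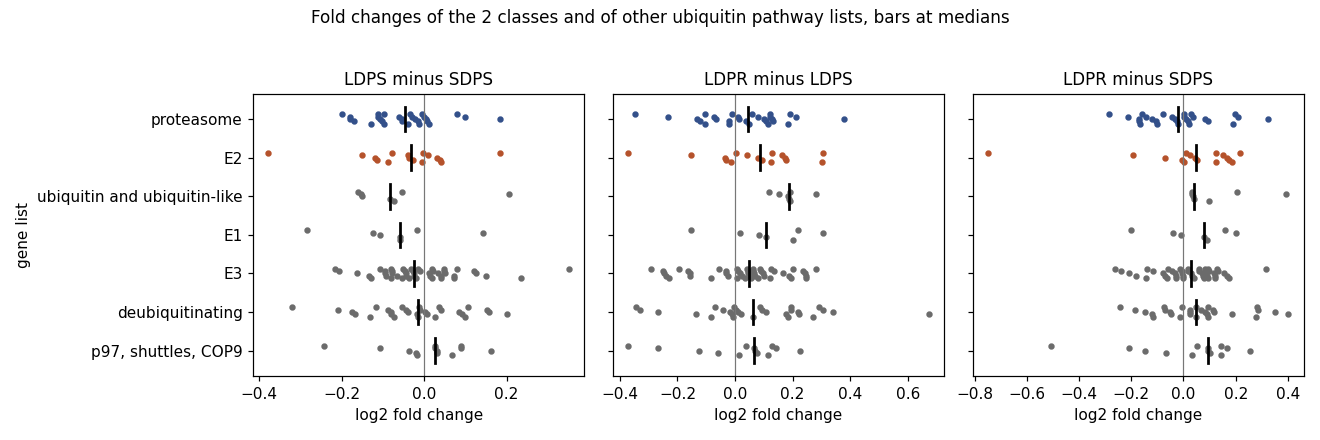
Log2 fold change (x axis) of the genes of 7 lists (y axis) in the 3 comparisons, 1 point per gene, with black bars at the list medians. List medians lie within 0.2 of 0 in each panel, and the ubiquitin and ubiquitin-like genes have the highest median in LDPR against LDPS, at 0.19.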

How the data were processed

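Total RNA of 12 pools was labelled with Alexa Fluor 555 or 647 and hybridised in pairs to 6 arrays, per the labels. Per the file headers, the authors used BlueFuse for Microarrays 3.6 (build 7145), which gave the deposited intensity, 1 amplitude per spot and channel. The deposited confidence score grades each spot, and spots under 0.1 were treated as missing. A value table of log2 intensities, also deposited by the authors, states no normalisation. It served as an alternative and lacked enough values for LOC416137.

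Ratios were normalised by loess within arrays (span 0.3, 4 iterations). Probes with a ratio on at least 5 arrays entered the limma fit (limma 3.58.1, R 4.3.3; prior degrees of freedom 6.64, residual 2 to 3), two-sided. Levels were rebuilt after A-quantile scaling between arrays, which leaves ratios as they are. The number of arrays limits the precision.

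Members and gene lists were chosen with earlier results of these data known. Named were UBE2E1, members with an unadjusted p under 0.05, the 3 highest and 3 lowest of each class in each comparison, and pathway genes with an unadjusted p under 0.05. A few genes that these rules or the marker lists hold are not reported here. Alternatives were print-tip loess, median centring, an offset of 50, all spots kept, probes above empty spots in 12 channels, no dye term, direct arrays only, separate channels, separate channels with a replicate block, the value table, and each array left out.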

Additional observations from a re-analysis of the deposited data

Results flagged for a closer look

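In 78 sets of 4 pools (24 members chosen by the rule for names and the 2 class medians in each of the 3 groups), 1 pool stood apart from the other 3 of its group. PSMD5, a chaperone of cap assembly, had a level of 7.77 in SDPS pool 3 against 8.07 in the next lowest SDPS pool, a gap of 0.849 of the group's whole range, which is past Dixon's 95% critical value for 4 values. Chance alone exceeds that value in about 1 of 20 sets.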

How the results depend on the processing

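No member passed the adjusted threshold under print-tip loess, median centring, the offset, all spots kept, the bright probes, no dye term, direct arrays only, the value table, or with any 1 array left out. In LDPR against LDPS, 1 member (PSMA2) passed with separate channels and 2 (PSMA2 and UBE2J1) with separate channels and the replicate block, out of 981 of 16748 probes. Pools of the same number were treated as not paired, and the block is given for completeness. Their deviations correlated from -0.455 to 0.273 on different arrays, and from 0.306 to 0.731 where they shared one. Pools of different numbers on different arrays ran from -0.501 to 0.491, a range that holds the first one. These correlations therefore cannot decide whether pools were paired.

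Counts at an unadjusted p under 0.05 are small and moved. In LDPR against LDPS the 2 proteasome members became 4 with print-tip loess, 5 with the offset, with separate channels and with the replicate block, and 1 with all spots, no dye term or direct arrays, and the 2 E2 members became 1 with direct arrays. Over all tested probes, 2511 of 18012 became 3062 with print-tip loess and 2726 with the offset. They became 1246 with no dye term and 1743 with direct arrays. The other counts were 3244 of 16748 (separate channels), 3972 of 16748 (replicate block) and 2286 of 20460 (all spots). In LDPR against SDPS the 2 proteasome members became 1 with print-tip loess, all spots or no dye term and 0 with direct arrays, and the 1 E2 member became 2 with print-tip loess, the offset, separate channels and the replicate block. Over all tested probes, 1687 of 18012 became 1693 with print-tip loess and 1676 with the offset. They became 614 with no dye term and 1525 with direct arrays. The other counts were 2410 of 16748 (separate channels), 2108 of 16748 (replicate block) and 1634 of 20460 (all spots). In LDPS against SDPS 0 proteasome members became 1 with separate channels and 3 with the replicate block, and 0 E2 members became 1 with the block or the value table. Over all tested probes, 780 of 18012 became 1167 of 16748, 1888 of 16748 and 701 of 16933 with these 3 settings. The 3 members with any difference became 5 with the offset and 1 with all spots, and the 1 open loop became 2 with print-tip loess or the offset. Over all tested probes these 2 shares were 10.7% and 3.3% in the main fit and were not computed for the alternatives.

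With 1 array left out, counts ran from 1 to 2 and 1 to 3 (proteasome and E2, LDPR against LDPS), 0 to 6 and 0 to 4 (LDPR against SDPS), 0 to 3 and 0 to 2 (LDPS against SDPS), 1 to 6 (any difference) and 1 to 4 (loop). Over the 18012 tested probes they ran from 1190 to 2613 in LDPR against LDPS. They ran from 1006 to 2845 in LDPR against SDPS and from 435 to 1674 in LDPS against SDPS. The highest counts in LDPR against SDPS came without LDPS pool 2 and SDPS pool 2 and the lowest without LDPR pool 2 and SDPS pool 4. This held for both classes and for all tested probes. With direct arrays only, UBE2E1 turned to 0.023 in LDPS against SDPS and 0.03 in LDPR against LDPS, and with the replicate block its LDPR against SDPS value was -0.22 (adjusted p = 0.639). Class medians moved by less than their residual SD throughout. That SD (0.108 for the proteasome and 0.110 for the E2 class) is the scatter of array medians, not the error of a fitted class median. It is larger than each fitted class median. A median that changed sign can therefore still fall within it. Causes were not tested.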
